A study of Mus musculus with 12 samples.

Results

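Microfold cells are epithelial cells over the lymphoid follicles of the gut that take up bacteria and particles and pass them to immune cells below. Cells with part of the same expression programme occur in the thymic medulla, among the medullary epithelial cells that imitate other tissues. The genes described here are 8 markers and regulators of microfold cells, taken by symbol from the count table: Gp2, Spib, Sox8, Tnfaip2, Pglyrp1, Aif1, Marcksl1 and Anxa5. All 8 were found among the 27179 genes of the table, and all 8 passed the filter on low counts.

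The RNA came from thymic epithelial cells (TECs) that were sorted out of 12 fetal thymic organ cultures, pieces of thymus kept alive in a dish, all on the C57BL/6 background. The control and knockout groups were both given tamoxifen. The control group is labelled control in the sample titles and wt in the column headers of the counts, and its alleles are not detailed. The knockout carried RosaCre-ERT2, a Cre recombinase switched on by tamoxifen and driven from the broadly active Rosa locus, together with Kat7fl/fl. The DMSO and WM-3835 groups were wildtype cultures given the solvent or an inhibitor of KAT7, the histone acetyltransferase also called HBO1 (sample titles spell it WM-3825, and no dose or duration is given). Lobes of every group were taken at E15.5 of gestation, held for 4 to 5 days in 1.35 mM 2′-deoxyguanosine to remove thymocytes, and then for 3 days with a RANK-activating antibody at 10 µg/mL. Each group holds 3 biological replicates. Because a Rosa-driven Cre acts in any cell type of the lobe, the knockout is not confined by design to TECs.

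RANK is the receptor whose signal, through the kinase NIK and the NF-κB subunits RelB and p52, starts microfold cell formation in the gut and also matures medullary TECs. In microfold cells that signal brings on the transcription factors Spi-B, of the ETS family, and SOX8, which are needed for maturation and for the uptake receptor GP2. In medullary TECs RANK also brings on Spi-B, which in turn raises osteoprotegerin, the decoy that catches the RANK ligand. All cultures described here received the RANK-activating antibody, so no group shows the genes without that signal.

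The libraries held 26656847 to 52368012 counts. Kat7 stood at 80.5 ± 7.38 CPM (TMM-scaled counts relative to library size, mean ± SD, n = 3 in every group) in control and at 0.762 ± 0.138 CPM in the knockout. Its level was 87.3 ± 2.37 CPM under DMSO and 99.4 ± 0.952 CPM under the inhibitor. The 10 thymic epithelium markers, Epcam and Foxn1 among them, summed to 7431 to 11759 CPM over the 12 libraries, and they did not stay level. By the test described below, 4 of them fell and none rose in the knockout, against 8.06% of all genes lower and 6.12% higher. Krt14 went from 94.4 to 37.3 CPM and Aire from 633 to 536 CPM. With WM-3835, 5 fell and 2 rose, against 9.35% of all genes lower and 9.34% higher. Aire went from 1199 to 556 CPM, Psmb11 from 511 to 213 CPM and Epcam from 541 to 773 CPM. Ptprc, the gene of the leukocyte antigen CD45, ran from 0.652 to 13.1 CPM. Replicates spread most among the controls (biological coefficient of variation 0.469, against 0.294 for knockout cultures, 0.103 for DMSO and 0.125 for the inhibitor). Xist was at 2.34 to 3.17 CPM in the controls and 4.94 CPM in knockout 3, and at 846 to 2118 CPM in the other 8 libraries, so the knockout comparison also sets Xist-poor against mostly Xist-rich libraries. In bulk RNA, fewer cells of a type and less RNA per cell cannot be told apart.

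Levels per gene length differed widely between the members. Marcksl1 was highest, with a mean level of 431 RPKM (reads scaled for gene length and library size) over the 12 libraries, followed by Anxa5 at 246, Spib at 107, Tnfaip2 at 72.6, Gp2 at 37.8, Pglyrp1 at 19.3, Sox8 at 4.74 and Aif1 at 1.34 RPKM. The broadly expressed genes of the cell cortex and membrane, Marcksl1 and Anxa5, thus stood above the regulators and the uptake receptor. Levels moved little between libraries for Anxa5, whose highest library was 1.23 times its lowest, Marcksl1 (1.51 times) and Spib (1.64 times). They moved most for Gp2, whose highest library was 15.2 times its lowest. Aif1 rested on only 15 to 102 counts per library, Sox8 on 195 to 977 and Pglyrp1 on 286 to 753, while the other members had at least 539 counts in every library.

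**Figure D1:**
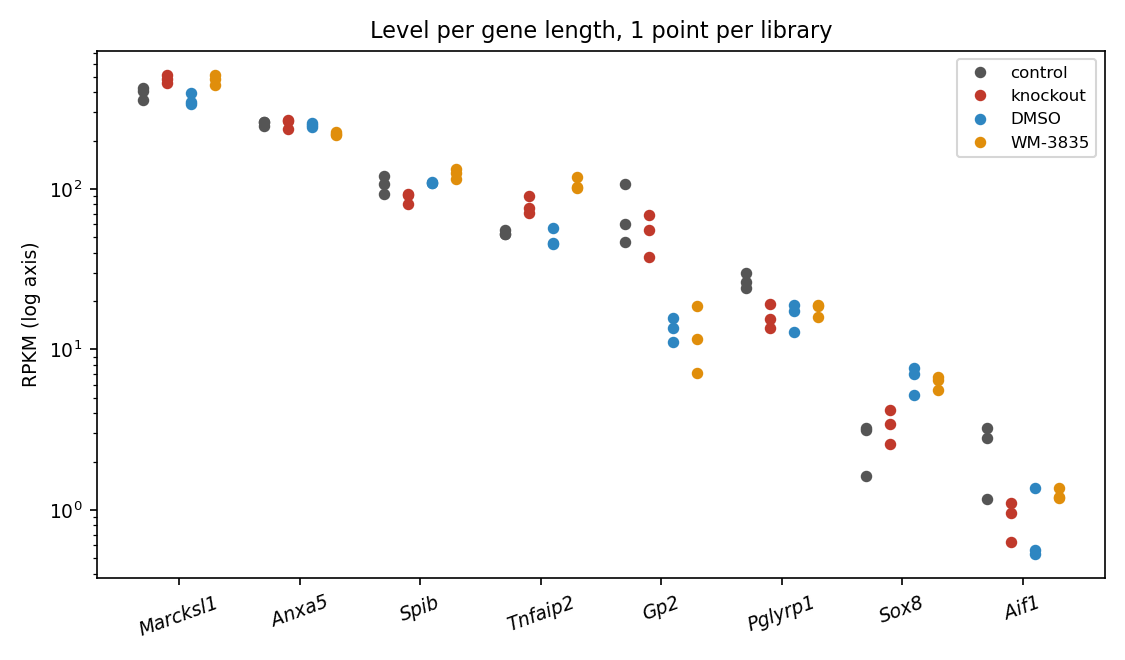
Level per gene length (RPKM, log axis) of the 8 genes, 1 point per library, coloured by group and ordered by the mean over 12 libraries. Marcksl1 and Anxa5 lie highest and Aif1 lowest, and Gp2 splits into a high set (control and knockout) and a low set (DMSO and WM-3835).

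The promoters of 3 members are shown, those of Spib and Pglyrp1 because their responses to knockout and inhibitor differed and that of Gp2 because it varied most. Each run is the 250 bases upstream of 1 RefSeq start on GRCm38.p6 (mm10), written 5′ to 3′ along the gene. RefSeq promoters were matched by Entrez ID for all 8 members. A gene can have several starts, and the window lies before only 1 of them: 16 bases of the Spib window, 31 of that of Aif1 and 211 of that of Tnfaip2 lie inside the annotated span of the gene. Of the Tnfaip2 window 192 bases are exon of other transcripts, so it is not shown. Capitals mark matches to the NF-κB consensus (κB, on either strand) in Spib and Pglyrp1, and to TATAAA in Gp2.
Gp2 (chr7:119459273-119459522, minus strand): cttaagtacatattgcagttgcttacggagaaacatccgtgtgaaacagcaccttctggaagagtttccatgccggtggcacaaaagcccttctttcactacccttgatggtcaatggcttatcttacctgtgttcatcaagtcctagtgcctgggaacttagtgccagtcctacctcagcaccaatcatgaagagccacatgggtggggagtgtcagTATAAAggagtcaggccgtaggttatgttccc
Spib (chr7:44532072-44532321, minus strand): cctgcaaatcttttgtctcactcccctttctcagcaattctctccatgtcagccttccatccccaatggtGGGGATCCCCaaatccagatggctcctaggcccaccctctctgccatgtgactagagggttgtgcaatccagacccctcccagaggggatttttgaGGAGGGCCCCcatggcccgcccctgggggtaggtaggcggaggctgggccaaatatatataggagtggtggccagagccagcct
Pglyrp1 (chr7:18884440-18884689, plus strand): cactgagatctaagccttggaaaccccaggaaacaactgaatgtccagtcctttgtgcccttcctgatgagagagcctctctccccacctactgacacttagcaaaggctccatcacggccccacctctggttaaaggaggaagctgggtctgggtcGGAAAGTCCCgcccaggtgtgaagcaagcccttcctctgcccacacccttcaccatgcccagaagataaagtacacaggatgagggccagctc

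A κB match was present in 3 of the 8 member promoters and in 7.25% of all 32851 promoters of this length. Spib held 2 such matches, GGGGATCCCC starting 180 bases and GGAGGGCCCC starting 84 bases upstream of the start. Tnfaip2 held the same GGAGGGCCCC starting 24 bases before the start used, which is downstream of its first annotated start, and Pglyrp1 held GGAAAGTCCC starting 93 bases upstream. The Gp2 promoter held TATAAA starting 32 bases upstream, a motif present in 12.4% of all promoters and in no other member. The ETS motif GAGGAAGT (2.44% of promoters) and the SOX motif AACAAT (9.42%), searched on both strands, were not found in these windows of any member. None of the matches overlapped another. By base composition the promoters fell apart as well: Tnfaip2 held 21 CpG, Sox8 18, Anxa5 13 and Marcksl1 12, against 4 in Gp2, 3 in Pglyrp1, 2 in Spib and 1 in Aif1, with a median of 6 over all promoters. A match describes the letters in a window and does not show that a factor binds there.

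The knockout comparison asks which TEC genes depend on KAT7. Without Kat7, Tnfaip2 and Marcksl1 rose, Pglyrp1 and Spib fell, and Gp2, Sox8, Aif1 and Anxa5 did not pass. Differences were tested with edgeR's quasi-likelihood test on all 12 libraries, with a threshold of 0.05 on the p adjusted by Benjamini-Hochberg over 18670 genes. By that rule 4 of 8 members were called, 2 higher and 2 lower, against 14.2% of all genes tested (6.12% higher and 8.06% lower). The median log2 change of the members was -0.14, against -0.01 over all genes.

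Among the regulators, Spib (Entrez ID 272382, chromosome 7, 44525995 to 44532087) stood at 298, 259 and 335 CPM in the controls and at 224, 253 and 261 CPM in the knockout. All 3 knockout libraries were below control 1 and control 3, but the highest lay just above control 2, so the groups overlapped. Spib fell, with a log2 change of -0.27 (SE 0.09, adjusted p = 0.0449, edgeR). This call sat at the threshold: it was lost in 15 of 23 other settings, in which the log2 change ran from -0.35 to -0.17 and the adjusted p from 0.0104 to 0.521. It did not pass with any 1 library left out except control 2. Of 6 tested markers of B cells and plasmacytoid dendritic cells, which also express Spib, none was called, against 14.2% of all genes. The listed markers of these cells summed to 19.5 to 23.8 CPM in control and 12.2 to 16.4 CPM in the knockout. Siglech was at 0 counts in both groups and Ms4a1 at 0 in the knockout. The part of these markers in the result was not tested.

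Sox8 (Entrez ID 20681, chromosome 17, 25565893 to 25570686) stood at 9.48, 4.85 and 9.65 CPM in the controls and at 7.77, 10.3 and 12.6 CPM in the knockout. The groups overlapped, control 2 being the lowest library of all 12, and the log2 difference of 0.35 (SE 0.24, adjusted p = 0.374) did not pass. The library kit does not mark strand, and exons of Sox8 share 329 bases with the antisense gene 2810468N07Rik, so reads of the pair cannot be told apart there.

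Gp2 (Entrez ID 67133, chromosome 7, 119442537 to 119459272) encodes the anchored receptor by which microfold cells bind the pili of gut bacteria. It stood at 213, 92.1 and 119 CPM in the controls and at 74.6, 109 and 137 CPM in the knockout. Control 1 alone was far above the rest, and the other 2 controls lay within the range of the knockout. The log2 difference of -0.41 (SE 0.29, adjusted p = 0.396) did not pass, and without control 1 it was 0.03 (adjusted p = 0.964).

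Tnfaip2 (Entrez ID 21928, chromosome 12, 111442450 to 111455018) encodes M-Sec, a protein that shapes membrane protrusions and was first found as a gene induced by tumour necrosis factor. It stood at 187, 197 and 188 CPM in the controls and at 273, 254 and 325 CPM in the knockout, with no overlap. Tnfaip2 rose, with a log2 change of 0.57 (SE 0.10, adjusted p = 0.000919), a 1.49-fold rise. It passed in all 23 other settings tried, with log2 changes of 0.48 to 0.78. Its exons share 314 bases with Gm40578, a gene on the opposite strand that has no row of its own in the count table.

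Pglyrp1 (Entrez ID 21946, chromosome 7, 18884690 to 18890438) encodes a secreted protein that binds bacterial peptidoglycan and is also made by neutrophils. It stood at 17.8, 16.5 and 20.5 CPM in the controls and at 9.23, 10.5 and 13.1 CPM in the knockout, all below the controls. Pglyrp1 fell, with a log2 change of -0.74 (SE 0.19, adjusted p = 0.0125). The call was lost without knockout 1 (-0.62, adjusted p = 0.064), with quality weights per group (-0.76, adjusted p = 0.0582), with Xist as a covariate (-0.43, adjusted p = 0.449) and when knockout 3 was left as the sole Kat7-deleted library (-0.47, adjusted p = 0.35). Of 7 tested neutrophil markers, 3 (S100a8, Mpo and Ngp) fell and none rose, against 8.06% of all genes lower. The other 4 were not called: S100a9 (log2 -0.05), Ltf (-0.43), Ly6g (-0.92) and Camp (-0.96). The summed level of the 9 listed neutrophil markers was 35.4 to 44.2 CPM in control and 18.9 to 24.8 CPM in the knockout. Elane stood at 0 counts in both groups and Cxcr2 at 0 in the knockout. The part of the neutrophil markers in the fall of Pglyrp1 was not tested.

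Aif1 (Entrez ID 11629, chromosome 17, 35170986 to 35176083) encodes IBA1, an actin-binding protein known from macrophages that also serves uptake in microfold cells. It stood at 1.02, 2.44 and 2.84 CPM in the controls and at 0.964, 0.552 and 0.834 CPM in the knockout. The knockout libraries were all below the controls, though only by a small margin against control 1, and the log2 difference of -1.41 (SE 0.65, adjusted p = 0.165) did not pass. Of 13 tested myeloid markers, 1 rose (Cd68) and 1 fell (Lyz2), against 6.12% of all genes higher and 8.06% lower. The listed myeloid markers summed to 71.4 to 131 CPM in control and 63.6 to 80.4 CPM in the knockout, with Cx3cr1 at 0 counts in the knockout.

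Marcksl1 (Entrez ID 17357, chromosome 4, 129513581 to 129515981) encodes a substrate of protein kinase C that binds actin and membranes. It stood at 571, 656 and 677 CPM in the controls and at 779, 732 and 824 CPM in the knockout, with no overlap. Marcksl1 rose, with a log2 change of 0.29 (SE 0.08, adjusted p = 0.0223), a 1.23-fold rise. The call was lost in 7 of 23 other settings, among them those without control 1 (0.23, adjusted p = 0.0672), knockout 1 (0.31, adjusted p = 0.0505) or knockout 3 (0.26, adjusted p = 0.0802). It was also lost with only the 6 libraries compared (0.29, adjusted p = 0.0561) and under limma-voom with quality weights per group (0.30, adjusted p = 0.0788). The remaining losses were with Xist as a covariate (0.41, adjusted p = 0.0842) and with knockout 3 as the sole Kat7-deleted library (0.39). Anxa5 (Entrez ID 11747, chromosome 3, 36448923 to 36475887), whose product binds phosphatidylserine on membranes, stood at 452, 449 and 425 CPM in the controls and at 461, 409 and 455 CPM in the knockout. Its log2 difference was 0.00 (SE 0.07, adjusted p = 0.993), the smallest of the 8. Both genes are broadly expressed. Of 9 fibroblast markers 4 fell in the knockout and none rose, against 8.06% of all genes lower. The summed level of these 9 markers was 128 to 199 CPM in control and 64.2 to 87.3 CPM in the knockout.

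In the knockout comparison the 3 libraries of one group all lay above or below the other 3 for 4 of 8 members (Tnfaip2 and Marcksl1 above, Pglyrp1 and Aif1 below), against 25.8% of all genes (12.2% above and 13.5% below).

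**Figure D2:**
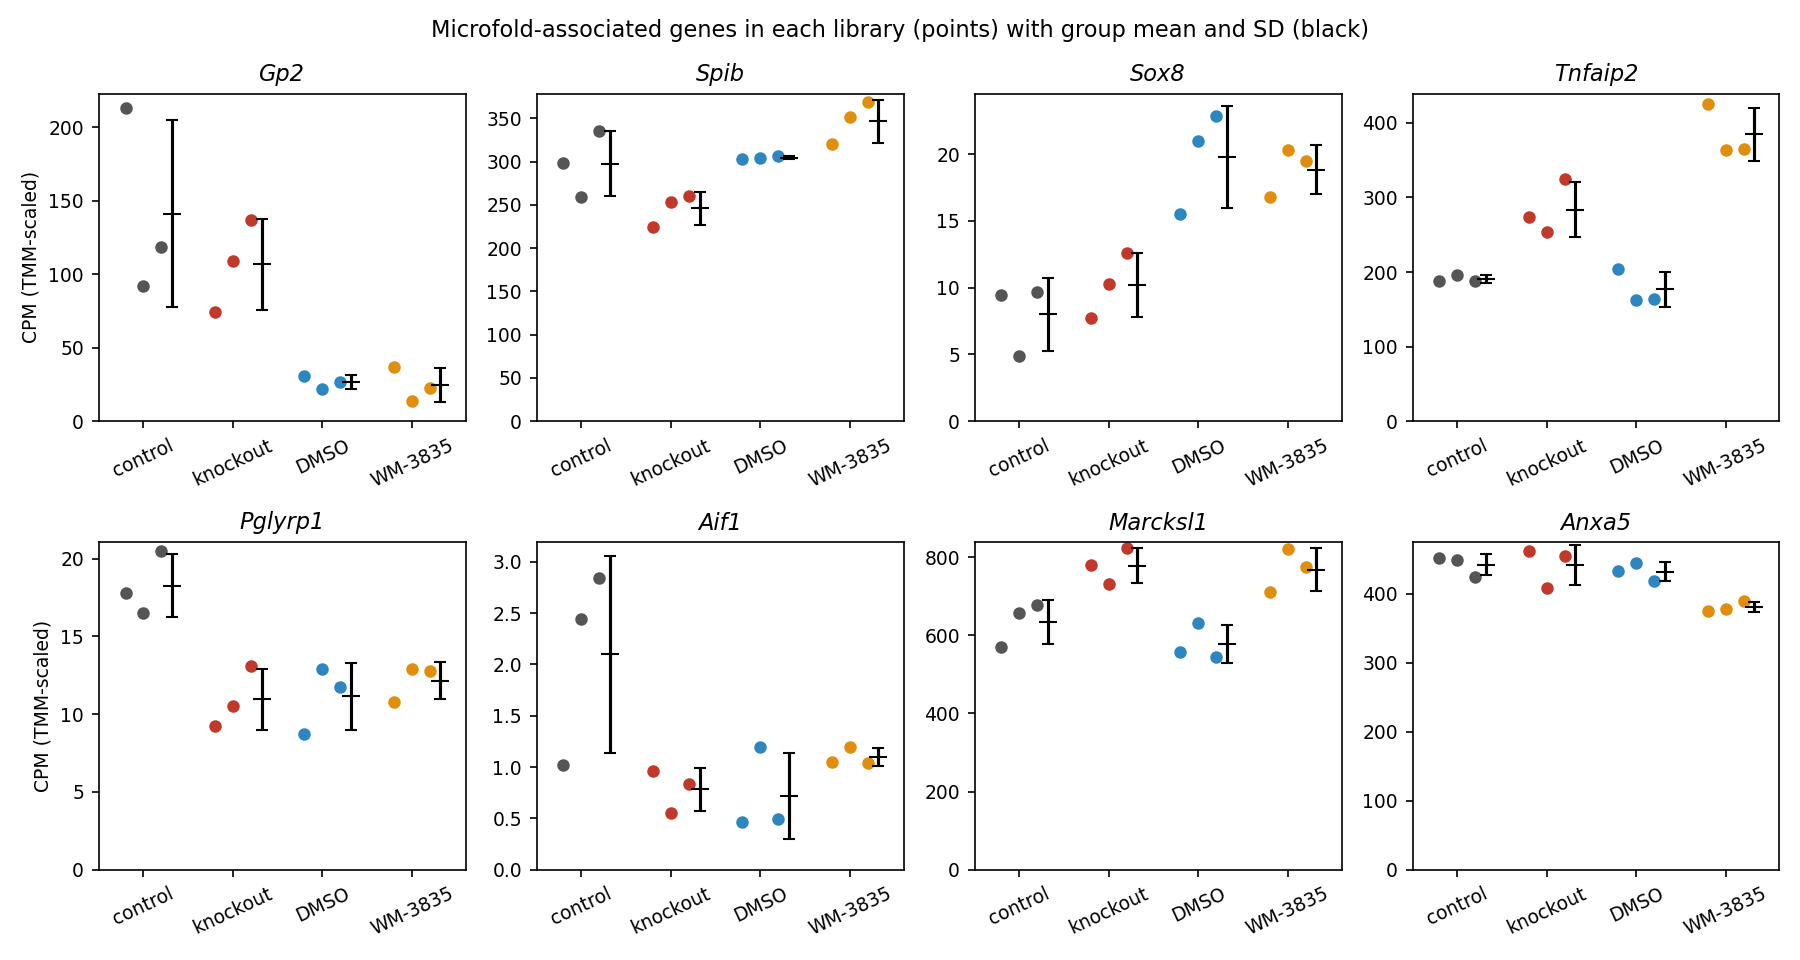
CPM of the 8 genes by group, 1 point per library in replicate order, with the group mean and SD in black at the right of each set; every axis starts at 0. Tnfaip2 and Marcksl1 lie higher in knockout than in control and higher with WM-3835 than with DMSO, and Pglyrp1 lies lower in all other groups than in control.

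The inhibitor comparison asks what WM-3835 does to the same genes in wildtype TECs. Tnfaip2 and Marcksl1 rose here too, and the other 6 members did not pass. That is 2 of 8 called, both higher, against 18.7% of all genes (9.34% higher and 9.35% lower). The median log2 change of the members was 0.16, against -0.01 over all genes.

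Tnfaip2 stood at 204, 163 and 164 CPM under DMSO and at 426, 364 and 365 CPM with WM-3835. Every inhibitor library was above every DMSO library, and the log2 change of 1.12 (SE 0.10, adjusted p = 4.22e-07) was 2.17-fold. Marcksl1 stood at 557, 632 and 544 CPM under DMSO and at 710, 821 and 774 CPM with WM-3835, again with no overlap, and rose by 0.41 (SE 0.08, adjusted p = 0.00145). Both calls held in all 23 other settings, with log2 changes of 1.04 to 1.24 for Tnfaip2 and 0.36 to 0.48 for Marcksl1. Of 9 fibroblast markers, 1 rose and 3 fell with WM-3835, against 9.34% of all genes higher and 9.35% lower. Pdgfra went from 1.06 to 18.5 CPM, while Pdgfrb, Dcn and Thy1 fell. Those not called were Col3a1 (log2 0.56), Col1a2 (0.06), Twist1 (-0.20), Col1a1 (-0.53) and Lum (-1.73). The 9 markers summed to 60.3 to 79.9 CPM under DMSO and 54.8 to 67.7 CPM under the inhibitor. Of 13 tested myeloid markers only Cd68 was called (from 9.005 to 18.6 CPM), against 18.7% of all genes. The myeloid list summed to 51.3 to 74.5 CPM under DMSO and to 57.7 to 61.1 CPM with WM-3835. Whether these marker transcripts came from such cells was not tested, nor was their part in the changes of Tnfaip2 and Marcksl1.

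Among the regulators, Spib stood at 302, 305 and 307 CPM under DMSO and at 320, 351 and 369 CPM with WM-3835. The inhibitor libraries were all above the DMSO libraries, but the log2 difference of 0.19 (SE 0.09, adjusted p = 0.163) did not pass. It passed when fitted on those 6 libraries alone (0.18, adjusted p = 0.0431) or with quality weights per group (0.18, adjusted p = 0.0155). Sox8 stood at 15.49, 21.0 and 22.9 CPM under DMSO and at 16.8, 20.3 and 19.5 CPM under WM-3835, overlapping, with a log2 difference of -0.07 (SE 0.23, adjusted p = 0.899).

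Gp2 stood at 31.0, 22.0 and 27.0 CPM under DMSO and at 36.8, 14.1 and 22.8 CPM with WM-3835. The inhibitor libraries lay on both sides of the DMSO libraries, and the log2 difference was -0.12 (SE 0.30, adjusted p = 0.862). Pglyrp1 stood at 8.75, 12.9 and 11.7 CPM under DMSO and at 10.8, 12.9 and 12.8 CPM under WM-3835, with a log2 difference of 0.13 (SE 0.19, adjusted p = 0.723). Of the 7 tested neutrophil markers, 4 (S100a8, Mpo, Camp and Ngp) fell with WM-3835 and none rose, against 9.35% of all genes lower. The other 3 were not called: Ltf (log2 0.82), S100a9 (-0.68) and Ly6g (-0.71). The 9 listed neutrophil markers summed to 21.8 to 32.4 CPM under DMSO and to 12.4 to 13.7 CPM with WM-3835. Their part in the level of Pglyrp1 was not tested.

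Aif1 stood at 0.462, 1.20 and 0.491 CPM under DMSO and at 1.05, 1.20 and 1.04 CPM under WM-3835, with a log2 difference of 0.63 (SE 0.65, adjusted p = 0.592). Anxa5 stood at 432, 445 and 418 CPM under DMSO and at 375, 378 and 389 CPM with WM-3835. The inhibitor libraries were all lower, yet the log2 difference of -0.18 (SE 0.07, adjusted p = 0.0638) did not pass. It passed in 10 of 23 other settings, DESeq2 (-0.20, adjusted p = 0.0063) and limma-voom (-0.18, adjusted p = 0.0384) among them. In all, 4 of 8 members (Spib, Tnfaip2, Marcksl1 and Anxa5) had groups that did not overlap, 3 above and 1 below, against 46.1% of all genes (23.1% above and 23% below).

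**Figure D3:**
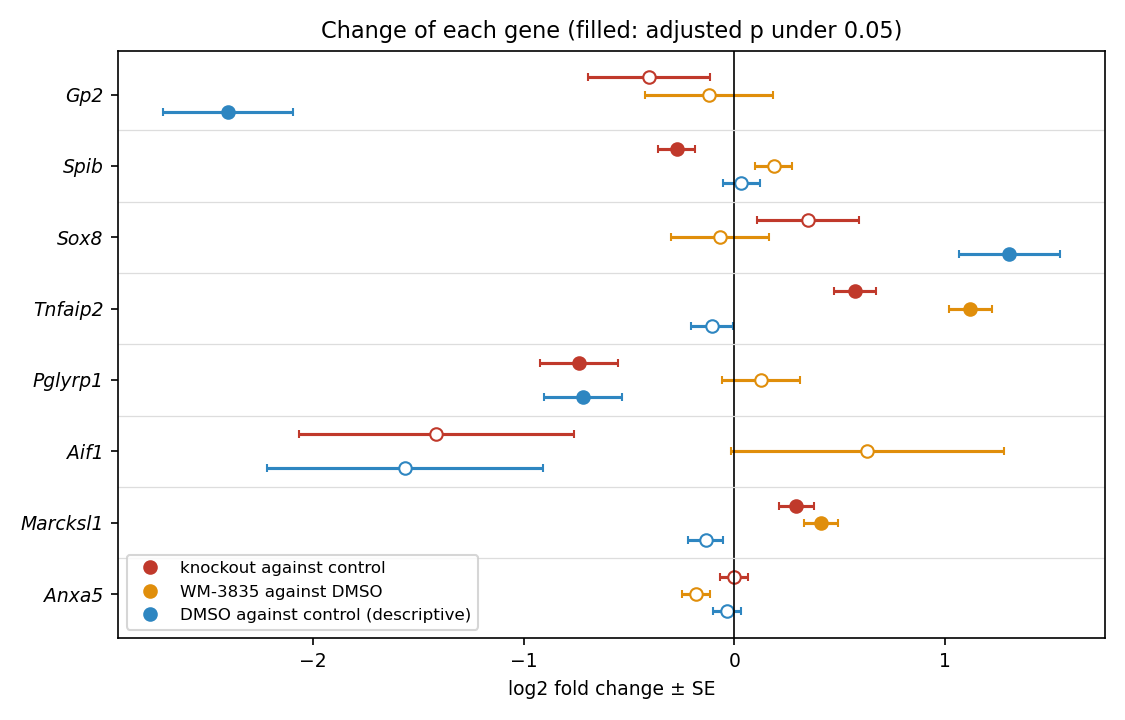
Log2 fold change ± SE of each gene in the knockout, inhibitor and DMSO-against-control comparisons; filled points passed at an adjusted p under 0.05. Tnfaip2 lies at 0.57 and 1.12 and Marcksl1 at 0.29 and 0.41 in the first pair of comparisons. In DMSO against control, Gp2 (-2.40), Aif1 (-1.56, which did not pass) and Sox8 (1.30) lie farthest from 0.

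The knockout and inhibitor effects differed for 3 of 8 members, tested as the difference of the log2 changes in the same fit, all 3 with the lower value in the knockout, against 10.1% of all genes (4.41% higher and 5.69% lower). Spib, at -0.27 in the knockout and 0.19 with the inhibitor, differed by -0.46 (SE 0.12, adjusted p = 0.0223). Tnfaip2 rose in both comparisons, and its change was smaller in the knockout by 0.55 (difference -0.55, SE 0.14, adjusted p = 0.017). Pglyrp1, at -0.74 and 0.13, differed by -0.87 (SE 0.26, adjusted p = 0.0412). For Marcksl1 the difference was -0.12 (SE 0.12, adjusted p = 0.621) and for Gp2 -0.29 (SE 0.42, adjusted p = 0.762), so neither was shown to differ. These 3 calls were fragile: that of Spib was lost in 9 of 22 other settings, that of Tnfaip2 in 7 and that of Pglyrp1 in 12. All 3 were lost with Xist as a covariate, with knockout 3 left as the sole Kat7-deleted library, without knockout 1 and without DMSO 3.

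DMSO against control is a description of the culture sets, because genotype label, treatment and Xist level differ together and cannot be told apart. Xist was at 2.34 to 3.17 CPM in the controls and at 1382 to 1898 CPM in the DMSO libraries. Gp2 and Pglyrp1 were lower and Sox8 was higher in the DMSO cultures, and the difference of Gp2 was the largest of the 8. Gp2 stood at 22.0 to 31.0 CPM with DMSO against 92.1 to 213 CPM in control, a log2 difference of -2.40 (SE 0.31, adjusted p = 1.23e-05). Sox8 stood at 15.49 to 22.9 CPM against 4.85 to 9.65 CPM, a log2 difference of 1.30 (SE 0.24, adjusted p = 0.000491). Pglyrp1 was lower by a log2 difference of -0.72 (SE 0.18, adjusted p = 0.0076). The log2 difference of Aif1 was -1.56 (SE 0.65, adjusted p = 0.0924) and did not pass. It passed under DESeq2 (-1.60, adjusted p = 0.0288), with quality weights per group (-1.64, adjusted p = 0.0486) and without control 1 (-1.88, adjusted p = 0.0466). Spib, the other regulator, stood at nearly the same level in both sets, with a log2 difference of 0.03 (SE 0.09, adjusted p = 0.831). In number, 3 of 8 members were called, 1 higher and 2 lower, against 24.6% of all genes (11.4% higher and 13.3% lower). The same 3 had groups that did not overlap, against 38.9% of all genes (19.6% above and 19.4% below). The call of Gp2 was lost with Xist as a covariate (-1.92, adjusted p = 0.0873), and that of Pglyrp1 with that covariate (-0.24, adjusted p = 0.78) or without DMSO 1 (-0.56, adjusted p = 0.0684). Ptprc was also lower with DMSO (log2 difference -2.81, adjusted p = 0.000239), as were 3 of 6 tested markers of B cells and plasmacytoid cells. Of 13 tested myeloid markers, Ptprc included, 3 were lower. Of 9 fibroblast markers 4 were lower and 1 was higher, with summed levels of 60.3 to 79.9 CPM with DMSO against 128 to 199 CPM in control. Of 10 thymic epithelium markers 5 were lower and 2 higher. Of 7 tested neutrophil markers 1 (Ltf) was lower, and the list summed to 21.8 to 32.4 CPM against 35.4 to 44.2 CPM. Whether these marker transcripts came from such cells was not tested, nor was their part in the differences of Gp2, Sox8 and Pglyrp1.

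The order of the groups therefore differed from gene to gene. For Gp2 the order was WM-3835, DMSO, knockout, control from low to high, with a 4.01-fold step between DMSO and knockout and overlapping neighbours elsewhere. Sox8 ran the other way, from control and knockout, which overlapped, to WM-3835 and DMSO, which overlapped, with a 1.85-fold step between the pairs. Tnfaip2 rose from DMSO and control, which overlapped, through knockout to WM-3835, each of the last steps without overlap. Pglyrp1 was lowest in knockout, DMSO and WM-3835, which overlapped as neighbours, and 1.50-fold higher in control than in WM-3835.

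The genes nearest in pattern to each member were sought next. Likeness was measured as the root mean square difference of centred log2 CPM over the 12 libraries, among 13988 other genes with a mean log2 CPM of at least 0. Among the genes nearest to Gp2 were Neurl1a (0.34 log2 units) and Kcnj16 (0.34), against a standard deviation of Gp2 itself of 1.27. Nearest to Sox8 were Map1b (0.28), Icosl (0.28) and Il4i1 (0.29), against its standard deviation of 0.68. Nearest to Tnfaip2 were Ppargc1b (0.14), Tmco4 (0.16) and Hexdc (0.16), against 0.49, and among the nearest to Spib were Nkiras2 (0.05) and Rabep2 (0.09), against 0.21. Pglyrp1 lay nearest to S100a10 (0.16), Vstm5 (0.16) and Idi1 (0.17), against 0.37. Aif1, Marcksl1 and Anxa5 lay nearest to Pappa2 (0.43), Trim12a (0.07) and Rab5a (0.04), against standard deviations of 0.77, 0.21 and 0.11. No member was among the 3 genes nearest to another member. The smallest distance between members was that of Marcksl1 and Anxa5 (0.25), and the largest that of Gp2 and Sox8 (1.77). Genes that vary little lie close by this measure. The distance of 0.25 exceeded the standard deviations of both Marcksl1 and Anxa5, so it does not show a shared pattern.

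Other genes reported from gut microfold cells gave a mixed picture in both comparisons. Of 12 such genes, 1 rose and 2 fell in the knockout, and 3 rose and 3 fell with WM-3835. Over all genes, 14.2% were called in the knockout and 18.7% with WM-3835. The median log2 changes of the 12 genes were -0.15 and 0.03. Ccl9, a chemokine of the follicle epithelium, fell in the knockout from 38.5 ± 20.1 to 15.0 ± 0.690 CPM (log2 -1.35, SE 0.25, adjusted p = 0.00125). With WM-3835 it rose from 5.44 ± 0.371 to 14.5 ± 2.05 CPM (log2 1.41, SE 0.25, adjusted p = 0.000597). The prion protein gene Prnp went the opposite way, rising in the knockout (log2 0.34, SE 0.08) and falling with WM-3835 (log2 -0.33, SE 0.08). Ctsh, a lysosomal protease, fell in both, by 1.00 (SE 0.10) and 0.56 (SE 0.10) on the log2 scale. Serpinb1a, a protease inhibitor, rose with WM-3835 by 1.12 (SE 0.10), and Ncf4, a subunit of the phagocyte oxidase, fell by 1.04 (SE 0.16). The chemokine gene Ccl20, the classic signal of follicle epithelium, was low and passed in neither comparison (6.04 ± 3.49 CPM in control, 4.00 ± 1.64 in knockout, 3.11 ± 0.638 with DMSO and 2.95 ± 0.791 with WM-3835).

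Of 12 genes listed for RANK signalling, 1 rose and 2 fell in each comparison. The list includes Traf6, Rela and Nfkb1, which are not steps of the path through NIK to RelB and p52. Over all genes, 6.12% rose and 8.06% fell in the knockout, and 9.34% rose and 9.35% fell with WM-3835. The median log2 changes of the list were -0.02 in the knockout and -0.13 with WM-3835. The receptor gene Tnfrsf11a was not called in either (log2 0.07, SE 0.09, and -0.19, SE 0.09). Tnfrsf11b, which encodes osteoprotegerin, fell in both, from 133 to 66.3 CPM in the knockout (log2 -1.01, SE 0.11) and from 90.4 to 70.0 CPM with WM-3835 (log2 -0.37, SE 0.11). The adaptor gene Traf6 rose in the knockout (log2 0.33, SE 0.09) and Map3k14, the gene of NIK, fell (log2 -0.31, SE 0.08). With WM-3835, Relb fell (log2 -0.27, SE 0.08) and Rela rose (log2 0.34, SE 0.08). The ligand gene Tnfsf11 was low and uneven: it stood at 1.56, 0.149 and 1.14 CPM in the controls and at 0, 0.221 and 0 CPM in the knockout, and its log2 difference of -3.69 (SE 1.43, adjusted p = 0.0944) did not pass. It ran from 0.224 to 0.578 CPM in the other 6 libraries. Where every library of a group has 0 counts, up to 3 counts per library remain possible, which is 0.0578 to 0.112 CPM at these depths (counting error only).

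Relatives of the members in the same gene families were followed as well. Of 22 relatives, 5 fell and none rose in the knockout, and 4 fell and 4 rose with WM-3835, with medians of -0.42 and -0.26. Over all genes, 8.06% fell and 6.12% rose in the knockout, and 9.35% fell and 9.34% rose with WM-3835. Umod, the uromodulin gene and nearest relative of Gp2, fell in the knockout from 29.6 ± 12.7 to 5.17 ± 1.37 CPM (log2 -2.52, SE 0.36, adjusted p = 0.000153) and with WM-3835 from 3.65 ± 0.868 to 1.06 ± 0.562 CPM (log2 -1.77, SE 0.39), while Gp2 passed in neither. Pglyrp2, the amidase of the peptidoglycan-binding family, fell in both (log2 -0.64, SE 0.10, and -1.37, SE 0.11), and so did Aif1l, the relative of Aif1 (log2 -0.43, SE 0.14, and -0.71, SE 0.14). Among annexins, Anxa1 rose with WM-3835 by 1.02 (SE 0.10), as did Anxa3 (0.90), Anxa8 (0.60) and Anxa4 (0.44). Anxa2 fell in the knockout by 0.50 (SE 0.10), and Anxa6 fell in both (log2 -0.41, SE 0.09, and -0.26, SE 0.09). Anxa5 passed in neither. Differences between a member and its relative were not tested.

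**Figure D4:**
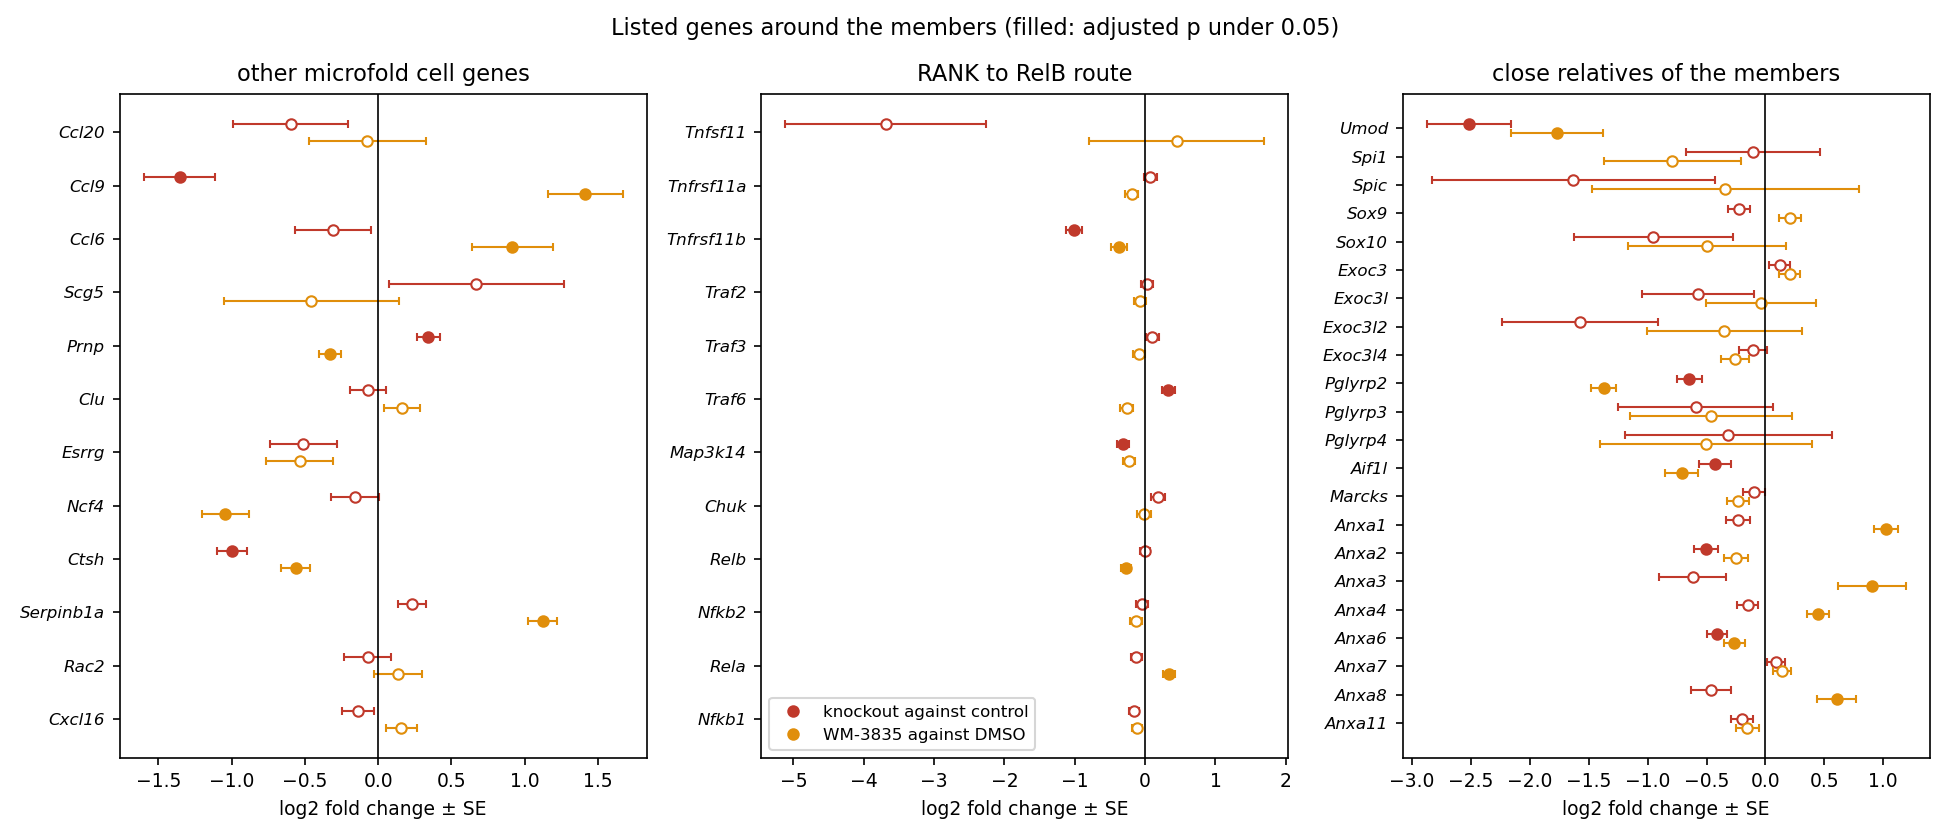
Log2 fold change ± SE in the knockout and inhibitor comparisons for other microfold cell genes, the RANK route and the members' close relatives; filled points passed at an adjusted p under 0.05. Ccl9 and Prnp lie on opposite sides of 0 in the pair of comparisons, and Ctsh, Tnfrsf11b, Umod, Pglyrp2, Aif1l and Anxa6 passed below 0 in both.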

How the data were processed

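Per the submitters' processing notes, the authors counted reads with featureCounts on mm10, and the deposited values are raw counts per gene, with a gene length in the same table. The libraries were TruSeq RNA v2, read as 75-base pairs, per the labels. The sources used here do not name the aligner, annotation, strand setting or handling of shared reads, so counts of close copies such as Serpinb1a are uncertain. The 12 single-library files and the series table hold the same counts.

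The 1312 genes without a symbol were left out (0.657% to 0.743% of counts). Of the 25867 others, filterByExpr kept 18670. Counts were scaled by TMM and fitted with edgeR 4.0.16 in R 4.3.3 (quasi-likelihood, 4 group means, 12 libraries), with Benjamini-Hochberg adjustment over all tested genes, after the scripts were tested on simulated data. The log2 CPM used a prior count of 2. Lists are described by counts and medians, without a set test. Other settings used RLE or upper-quartile scaling, DESeq2 1.42.0, limma-voom (limma 3.58.1), other filters, covariates and left-out libraries. The members and lists were chosen with earlier results of these data known. The text names every member, up to 4 genes with the smallest adjusted p of a list per comparison or those with values beside a result, and the 3 genes nearest in pattern, some of which are not reported here. The labels do not say whether replicate numbers pair the samples, and no pairing was used in the main fit. Same-numbered libraries correlated at 0.0022 to 0.058 in their deviations from group means, under the limit of 0.1. Such low correlations cannot exclude a pairing. P-values rest on a spread between cultures that is shared by the 4 groups, so they do not measure the spread of the controls alone. The controls varied most (biological coefficient of variation 0.469, against 0.103 for DMSO and 0.125 for WM-3835). Under limma-voom with quality weights per group, the knockout calls of Spib (adjusted p = 0.112), Pglyrp1 (0.0582) and Marcksl1 (0.0788) were lost.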

Additional observations from a re-analysis of the deposited data

Results flagged for a closer look

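The effects of knockout and inhibitor differed by the edgeR test of their difference for Spib (-0.46 on the log2 scale, adjusted p = 0.0223), for Tnfaip2 (-0.55, adjusted p = 0.017) and for Pglyrp1 (-0.87, adjusted p = 0.0412). Spib and Pglyrp1 were called lower in the knockout (log2 -0.27 and -0.74), and their values with WM-3835 (0.19 and 0.13) did not pass. Tnfaip2 rose in both comparisons and rose more with WM-3835. The call of a difference was lost in 9 of 22 other settings for Spib, in 7 for Tnfaip2 and in 12 for Pglyrp1.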

How the results depend on the processing

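The number of members called changed with the settings in all 4 comparisons. In the knockout comparison, members called higher went from 2 to 1 with only the 6 libraries compared, with quality weights per group, with the Xist covariate and with knockout 3 as the sole Kat7-deleted library, and ran from 1 to 2 with 1 library left out. Members called lower went from 2 to 1 with only 6 libraries and to 0 with quality weights, the Xist covariate or knockout 3 alone, and ran from 0 to 2 with 1 library left out. With WM-3835, members called lower went from 0 to 1 (Anxa5) under RLE and upper-quartile scaling, DESeq2, limma-voom, the CPM filter, only 6 libraries and quality weights, and ran from 0 to 1 with 1 library left out; members called higher stayed at 2 to 3. For the difference of the effects, the 3 members called lower became 0 with the Xist covariate or knockout 3 alone and ran from 0 to 3 with 1 library left out, and that fit could not be made on 6 libraries. In DMSO against control, the 2 called lower became 0 with the Xist covariate and ran from 1 to 3 with 1 library left out. The causes were not tested.

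Every change of sign was in a value that did not pass. In the knockout comparison, Anxa5 was 0.003922 without a filter, 0.041 with the Xist covariate and 0.052 with knockout 3 alone. With 1 library left out, Anxa5 ran from -0.023 to 0.062 and Gp2 from -0.63 to 0.027. With WM-3835 and 1 library left out, Gp2 ran from -0.55 to 0.16, Sox8 from -0.22 to 0.043 and Pglyrp1 from -0.022 to 0.24. For the difference of the effects, Gp2 was 0.016 with the Xist covariate and 0.090 with knockout 3 alone, and ran from -0.56 to 0.15 with 1 library left out, and Marcksl1 was 2.977e-05 with the Xist covariate. In DMSO against control the Xist covariate gave 0.20 for Tnfaip2, 0.033 for Marcksl1 and 0.029 for Anxa5, and with 1 library left out Spib ran from -0.038 to 0.14 and Anxa5 from -0.046 to 0.0058.

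Over all settings, the genes called in all ran from 482 to 3399 (2646 as reported) for the knockout, 2393 to 6589 (3490) for WM-3835, 693 to 2499 (1887) for their difference and 798 to 5109 (4600) for DMSO against control. For the RANK route, genes called lower with WM-3835 ran from 0 to 5 (2 as reported), and for other microfold cell genes those called lower in the knockout from 1 to 2. With the replicate number as a block, 2542, 3505, 2027 and 4559 genes were called in the 4 comparisons, and no member changed its call. The labels do not say whether the numbers pair the samples, and not every sample correlated best with its own number. Depth limits Aif1 most.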
